A study of Arabidopsis thaliana with 4 samples.

Results

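Open chromatin within protein-coding sequence was examined in flowers of Arabidopsis thaliana, in regions that every ATAC-seq library called. ATAC-seq uses the Tn5 transposase to insert adaptors into accessible DNA, and a peak marks a stretch with more insertions than its surroundings. Overlapping peaks of the 4 lists (1 bp or more) were joined into 64218 regions, of which 19546 were called in all 4 libraries. A region was kept when its strongest summit, that of the peak with the highest fold enrichment, lay in a coding exon and not in the 1 kb upstream of the transcription start site (TSS) of any protein-coding gene. These requirements left 1587 coding-exon regions, 8.12% of the regions called in all 4 libraries, in 1449 host genes. The place of the summit and the number of libraries therefore follow from the rule. A call in every list also sets a floor on strength in both genotypes, and it leaves out regions called in a single genotype. Strength above that floor only placed the summit. Width, exon rank, host gene, sequence and differences in strength between genotypes were not used to choose the regions.

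The libraries came from nuclei of flowers of Columbia-0 plants grown in greenhouse soil under long days for 4 weeks, 2 of wild type (WT) and 2 of mbd9-3. The mutant is a T-DNA insertion allele of MBD9, which encodes a methyl-CpG-binding domain protein associated with SWR1, the complex that places the histone variant H2A.Z in nucleosomes. No transgene, agent or second allele was named for either group, and the mutant was represented by 1 allele. The study compared open chromatin between these genotypes, and a figure legend calls its ATAC-seq signal a merge of 2 biological replicates. The labels do not say whether the libraries of a genotype came from separate plants, so p-values measure only the spread between these libraries.

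In plants, most accessible DNA lies just upstream of genes, where transcription factors and the transcription machinery displace nucleosomes. Coding exons are as a rule wrapped in nucleosomes, and the body of a gene transcribed by RNA polymerase II is usually poor in Tn5 insertions. Coding sequence can nevertheless hold short elements that regulatory proteins recognise, such as the G-box, a palindrome bound in plants by bZIP and bHLH proteins.

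The sequences of 9 summit windows, the strongest summit with 50 bp on each side, are given because they carry the patterns described below. Each is written 5′ to 3′ on the strand of its host gene, with TAIR10 coordinates. The letters in capitals are a G-box (CACGTG) or the hexamer TGGGCC or its reverse complement GGCCCA. AT5G10340, AT2G07732 and ALDH6B2 were among the 10 strongest regions, and the other 6 windows were chosen after their values were seen.
AT5G10340, chr5:3253151-3253251, plus strand: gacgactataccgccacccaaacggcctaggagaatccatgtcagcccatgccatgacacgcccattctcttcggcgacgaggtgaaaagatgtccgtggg
AT2G07732, chr2:3468393-3468493, minus strand: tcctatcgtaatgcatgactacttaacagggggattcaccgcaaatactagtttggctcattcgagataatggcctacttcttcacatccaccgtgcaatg
ALDH6B2 (AT2G14170), chr2:5981778-5981878, minus strand: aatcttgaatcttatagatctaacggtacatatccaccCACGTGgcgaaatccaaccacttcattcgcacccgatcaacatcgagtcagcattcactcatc
ECI1 (AT1G65520), chr1:24361190-24361290, minus strand: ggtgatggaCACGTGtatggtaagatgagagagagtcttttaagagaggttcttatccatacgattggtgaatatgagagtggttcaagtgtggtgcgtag
EPF2 (AT1G34245), chr1:12473498-12473598, plus strand: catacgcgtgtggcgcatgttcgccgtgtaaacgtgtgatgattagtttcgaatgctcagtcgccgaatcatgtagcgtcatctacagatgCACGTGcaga
SGR9 (AT5G02750), chr5:620897-620997, plus strand: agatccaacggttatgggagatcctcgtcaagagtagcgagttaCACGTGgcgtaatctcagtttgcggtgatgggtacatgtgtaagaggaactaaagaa
BEL1 (AT5G41410), chr5:16583489-16583589, plus strand: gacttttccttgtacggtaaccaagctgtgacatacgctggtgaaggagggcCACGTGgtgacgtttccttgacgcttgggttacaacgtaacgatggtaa
AT4G07825, chr4:4644448-4644548, plus strand: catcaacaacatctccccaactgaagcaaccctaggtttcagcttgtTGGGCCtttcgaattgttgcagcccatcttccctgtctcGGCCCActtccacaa
NCED6 (AT3G24220), chr3:8762795-8762895, plus strand: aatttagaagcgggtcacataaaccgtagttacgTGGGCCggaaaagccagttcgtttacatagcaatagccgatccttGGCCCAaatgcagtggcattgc

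The windows of ALDH6B2, ECI1, EPF2, SGR9 and BEL1 each held 1 G-box, those of AT4G07825 and NCED6 each held 2 copies of the other hexamer, and those of AT5G10340 and AT2G07732 held neither. ALDH6B2 encodes an aldehyde dehydrogenase and ECI1 an enoyl-CoA isomerase of fatty acid breakdown. EPF2 is a secreted peptide that restricts entry into the stomatal lineage, SGR9 a RING-type protein of shoot gravitropism, BEL1 a homeodomain protein of ovule development and NCED6 an enzyme of abscisic acid synthesis.

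Coding exons were called often in a single library and seldom in all. Of 19045 merged regions with the strongest summit in a coding exon outside promoters, 8.33% were called in all 4 libraries and 68.8% in only 1. Regions in promoters were called in all 4 libraries in 44.0% of cases, and those elsewhere in 36.4%. WT replicate 1 and mbd9-3 replicate 1 called 9384 and 10646 of the coding regions, whereas WT replicate 2 and mbd9-3 replicate 2 called 4989 and 4354. The number of calls in coding exons thus followed the replicate number rather than the genotype, and 4562 and 5750 of these regions were called only in WT replicate 1 and only in mbd9-3 replicate 1. Of the 19045 regions, 443 were called by both WT libraries and neither mbd9-3 library, and 348 by both mbd9-3 libraries and neither WT library. The matching counts over regions of all places were not taken, so these counts are not read as a difference between genotypes. The lists held 37609 to 45208 rows per library. Of 9 floral identity genes, 6 had a peak in all 4 libraries, AP3 had one in 2 libraries and AP2 and PI in 1 each, and of 3 root genes WOX5 had none, PLT1 had one in 3 libraries and PLT2 in 2. A called peak is not expression.

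Coding-exon regions were weaker than the other regions called in all 4 libraries. The rank percentile of a region in a library is the percentage position of its highest fold enrichment among all rows of that list, where 100 is the strongest. Its median over the coding-exon regions was 63.5 in WT replicate 1, 55.8 in WT replicate 2, 67.8 in mbd9-3 replicate 1 and 54.4 in mbd9-3 replicate 2. The medians of the other regions were 74.6, 74.6, 74.9 and 69.7 in the same order. The coding-exon regions were lower in 4 of 4 libraries, by a mean of 13.1 percentile points (difference −13.1 ± 5.04, SD, n = 4 libraries; p = 0.13 by an exact two-sided sign-flip test, the smallest it allows). Restricting the lists to peaks with a −log10 q of at least 5 left 539 coding-exon regions and a difference of −0.24. The fold enrichment at the summit, a ratio over the background of the same library, had medians of 4.27 to 4.42 in the coding-exon regions and 5.03 to 5.92 in the others. Solved from the listed fold and p-value on an assumed formula, these medians correspond to 13 to 16 overlapping tags at the summit against 15 to 22.

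Coding-exon regions took 19.9% of the weakest 10% of regions called in all 4 libraries and 6.19% of the strongest 10%. Of the coding-exon regions, 200 (12.6%) had a mean rank percentile of at least 90, against 17.5% of the others, and 125 (7.88%) were under 25, against 1.91%. Merged widths had a median of 265 bp, with a range of 81 to 1210 bp, and 648 regions (40.8%) lay wholly within 1 coding exon. The called width per library had medians of 184, 189, 194 and 178 bp (WT 1, WT 2, mbd9-3 1, mbd9-3 2), against 177, 210, 173 and 190 bp in the other regions. Coding-exon regions were wider in 2 libraries and narrower in 2, and the mean difference of −1.25 ± 18.9 bp (SD, n = 4) did not pass the exact sign-flip test (p = 1.0). The strongest summits of the 4 libraries fell within 50 bp of each other in 710 coding-exon regions (44.7%), against 58.4% of the others. In 1349 (85.0%) the strongest summit of every library met the rule on position, and 195 merged regions (12.3%) reached into a promoter with an edge.

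**Figure D1:**
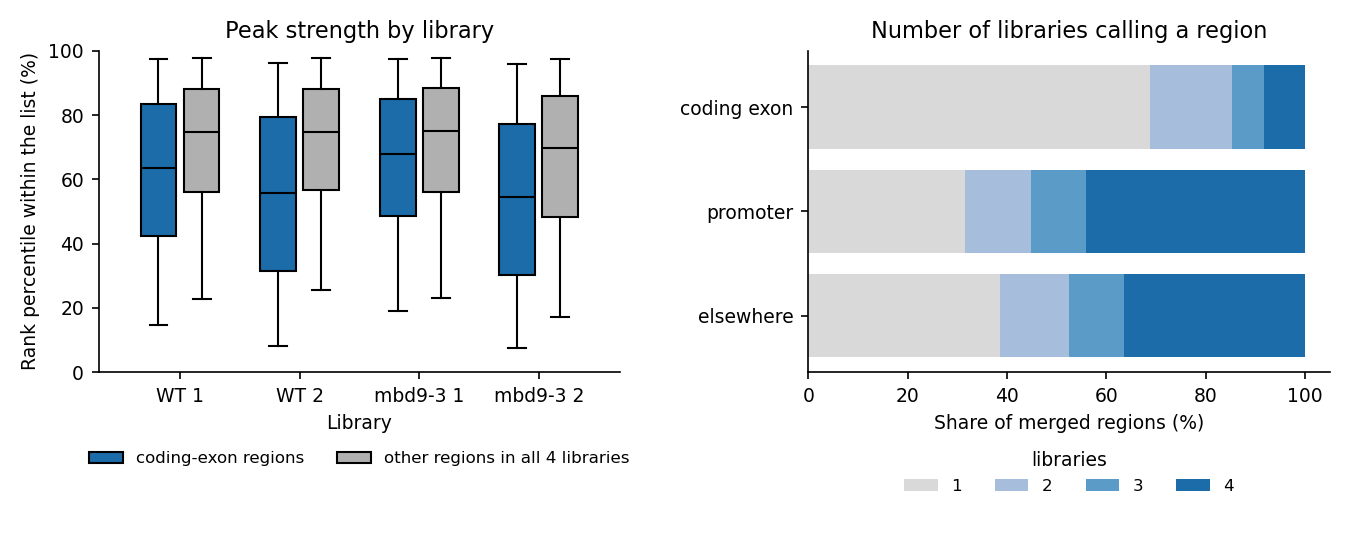
Left, rank percentile within each list (%) of the 1587 coding-exon regions and of the 17959 other regions called in all 4 libraries (line, median; box, quartiles; whiskers, 5th to 95th percentile). Right, share (%) of all merged regions called in 1, 2, 3 or 4 libraries, by place of the strongest summit. In every library the median of the coding-exon regions (54.4 to 67.8) was below that of the others (69.7 to 74.9), and 8.33% of regions in coding exons were called in all 4 libraries.

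The summits were placed unevenly over the exons of their genes. Genes with a single coding exon held 454 of 1587 regions, 28.6% (95% Wilson interval 26.4 to 30.9%), although such genes supplied 15.98% of the coding bases that met the rule on position (29703 kb in all, here called eligible bases). Intervals cover counting error only. Last coding exons held 516 regions, 32.5% (30.3 to 34.9%) against 17.9% of eligible bases. Internal coding exons held 341, 21.5% (19.5 to 23.6%) against 47.4%, and first coding exons of genes with several held 276, 17.4% (15.6 to 19.3%) against 18.8%. Single and last exons were therefore over their share of bases, internal exons under it, and the interval of first exons included theirs. Counting only the 1133 regions in genes with several coding exons, 45.5% were in the last, 30.1% in internal and 24.4% in the first exon, against 21.3%, 56.4% and 22.3% of eligible bases. With a median of 4 coding exons in these genes, 276 summits were in exon 1, 343 in exon 2, 188 in exon 3, 119 in exon 4, 56 in exon 5 and 151 beyond it, and the highest rank was exon 39. Host exons were longer than an average coding base would meet, with a median of 475 bp against 378 bp, while host genes were shorter, 2151 bp against 2942 bp.

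Along the gene, from TSS to annotated end, summits gathered near both ends, in larger number at the 3′ side. When the gene was divided into 10 equal bins, bin 1 held 157 regions (9.89%) against 5.09% of eligible bases, bin 8 held 281 (17.7%) against 11.7% and bin 9 held 278 (17.5%) against 9.64%. Bin 10 held 85 (5.36%) against 3.80%. Relative to bases, bin 1 stood highest, at 1.94 times its share, with 1.51, 1.82 and 1.41 times in bins 8, 9 and 10. Bins 2 to 6 held between 6.62 and 9.26% each, below their share of bases in every case. By distance, 227 summits (14.3%) were within 250 bp of the TSS against 6.19% of eligible bases, and 421 (26.5%) were 250 to 500 bp before the gene end against 10.3%. Beyond 1 kb from the end the shares were under those of the bases. A noncoding gene started within 250 bp of 43 summits (2.71%), against 0.973% of eligible bases, and another annotated TSS of the host within 250 bp of 23 (1.45% against 1.15%).

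**Figure D2:**
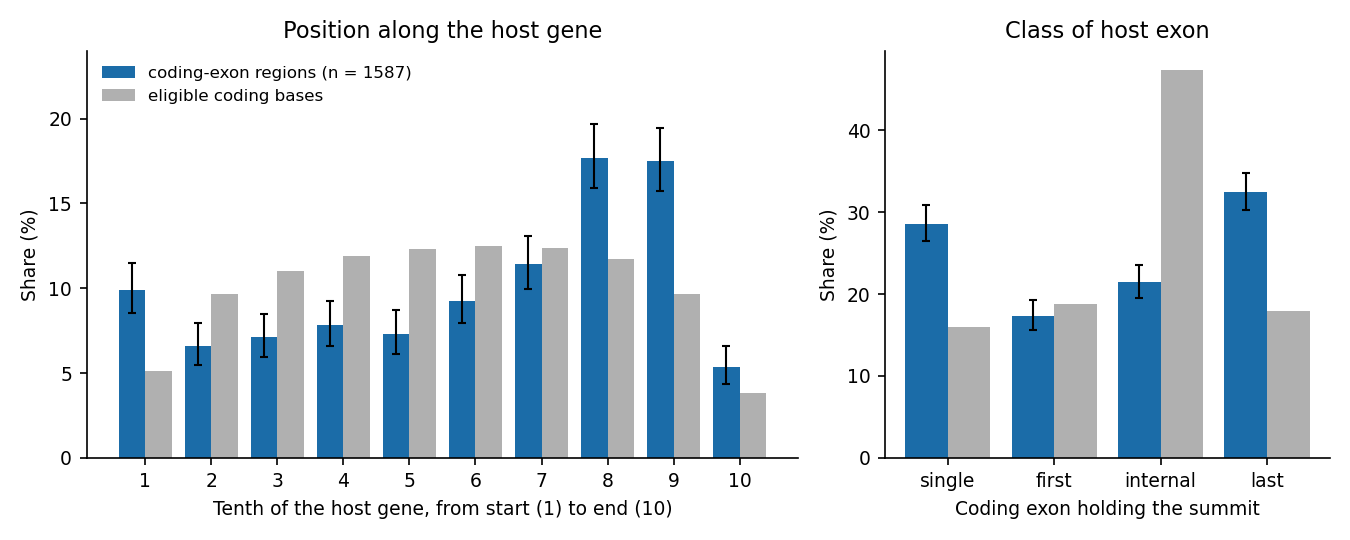
Left, share of coding-exon regions (%) in each of 10 equal bins of the host gene from start to end, and right, share by class of the coding exon holding the summit, beside the share of eligible coding bases (error bars, 95% Wilson intervals, n = 1587). Bins 8 and 9 held 17.7 and 17.5% of regions against 11.7 and 9.64% of bases, and internal exons 21.5% against 47.4%.

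Hosts rarely carried more than 1 region. A single region was found in 1327 genes, 2 in 107, 3 in 14 and 4 in 1, and 7 regions had a summit in coding exons of a pair of overlapping genes. Of 26274 genes with eligible bases, 5.51% were hosts, and 29.5% of hosts also had a promoter region called in all 4 libraries, against 33.9% of all genes with eligible bases. None of 23 genes that the study addressed, among them MBD9, the SWR1 subunits, FLC and FT, was a host.

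BXL2, which encodes a β-xylosidase of cell wall polysaccharides, was the gene with 4 regions. They lay in exons 1, 2, 3 and 5 of 5, with summits at 16.7, 39.1, 49.0 and 85.1% of the gene. Its strongest region by mean rank percentile, in exon 3, had fold enrichments of 6.71 and 7.96 in WT and 6.65 and 4.96 in mbd9-3. Its weakest, in exon 5, had 3.58 and 4.06 in WT and 3.59 and 3.61 in mbd9-3. The region in exon 2 had 7.25 and 5.54 in WT and 3.51 and 4.54 in mbd9-3. It was thus above exon 3 in WT replicate 1 and below exon 5 in mbd9-3 replicate 1. LAC2, a laccase of the family that oxidises lignin precursors, had 3 regions of unequal strength. The summit in exon 5 reached 12.2 and 11.3 in WT and 11.1 and 11.4 in mbd9-3, above every value in exons 4 and 6 (2.47 to 5.51). AT2G27660, a C1-domain protein encoded by a single coding exon, had 3 regions between 33.7 and 75.3% of the gene, and AT3G61028, annotated as an endonuclease or glycosyl hydrolase, had 3 between 48.1 and 94.9% of the gene.

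The 3 widest regions were 1210 bp in AT3G43670, a copper amine oxidase, 1135 bp in NCED6 and 1101 bp in AT3G05220, a heavy metal transport/detoxification protein. NCED6, whose single coding exon held the whole region, had fold enrichments of 16.04 and 12.4 in WT and 11.7 and 11.0 in mbd9-3. In AT3G43670 they were 8.92 and 7.37 in WT and 6.41 and 6.74 in mbd9-3, and in AT3G05220 7.63, 6.86, 6.26 and 4.76 in WT 1, WT 2, mbd9-3 1 and mbd9-3 2. Both WT fold enrichments exceeded both mbd9-3 ones in these 3 genes, but the groups overlapped in rank percentile in AT3G43670 and AT3G05220. Over all regions called in all 4 libraries, both mbd9-3 libraries ranked below both WT libraries in 17%. None of the differences passed the test given below (limma, adjusted p of at least 0.964 over all regions).

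The strongest coding-exon region lay in AT5G10340, an F-box gene, at codon 27 of the first of 2 coding exons and 79 bp from the TSS. Its fold enrichment was 86.6 and 78.0 in WT and 89.0 and 81.8 in mbd9-3, the highest of all coding-exon regions in each library. Near-identical copies of its window, at 95% identity or more over at least 95 bp, were found at 2 other nuclear places. AT3G41762, an uncharacterized gene with 28.2, 29.5, 33.0 and 31.6 in the order WT 1, WT 2, mbd9-3 1, mbd9-3 2, had 1 such copy.

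Of the 10 strongest regions, 7 had a summit window identical to the mitochondrial genome over its whole length. In total 12 regions in 10 hosts were of this kind, all on chromosome 2 with summits between 3245341 and 3478206. Their median mean rank percentile was 99.7, against 57.5 for the remaining regions. AT2G07599 reached fold enrichments of 36.9, 34.3, 42.6 and 32.5 in WT 1, WT 2, mbd9-3 1 and mbd9-3 2, ABCI4, annotated as a cytochrome c assembly protein, 34.0, 31.8, 32.0 and 33.1, and AT2G07732, annotated with a Rubisco large chain domain, 22.6, 23.8, 22.04 and 19.8. Nuclear and mitochondrial DNA cannot be told apart at these windows. Windows that matched the mitochondrial or the chloroplast genome, at 99% identity over 100 bp, made up 0.756% of coding-exon regions and 0.735% of the others. Organelle matches of either kind were thus about as frequent elsewhere.

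Outside this stretch the strongest regions lay in genes of varied roles. ALDH6B2 had its summit at codon 24, 71 bp from the TSS, with fold enrichments of 17.0 and 21.8 in WT and 20.9 and 15.99 in mbd9-3. In single-exon genes the next strongest were AT4G03965, a RING/U-box protein (19.5, 15.0, 16.9 and 15.2 in WT 1, WT 2, mbd9-3 1 and mbd9-3 2), AT4G07825, an uncharacterized protein (17.4, 18.4, 15.8 and 14.0), and ECI1 (19.8, 15.97, 13.3 and 14.4). The groups overlapped in AT4G03965, whereas both WT values of AT4G07825 and of ECI1 were above both mbd9-3 values, an order found by rank in 17% of all regions. Summits in all 3 genes lay late in the coding sequence, at codon 208 of 209, 219 of 247 and 218 of 240.

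Among first exons the next strongest were AT3G27330, a RING-type zinc finger protein (15.3, 15.2, 16.1 and 13.0), PDLP6, a protein of plasmodesmata (16.6, 15.3, 15.7 and 12.4), and AT5G43020, a leucine-rich repeat kinase (16.7, 13.8, 15.4 and 13.4), in the same order of libraries. Among internal exons they were AT1G40104 (20.02, 13.3, 22.4 and 19.7), AT3G46110 (14.3, 14.8, 12.2 and 12.7) and AT1G63420 (17.6, 13.4, 13.0 and 11.1). The window of AT1G40104 had 127 near-identical nuclear copies, and the 3 windows of AT2G08986, an uncharacterized gene of 46 coding exons, had 68 to 156. In all, 16 coding-exon regions (1.01%) had any. The part of repeated sequence in the values of these regions was not tested.

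The leading regions of last exons were those of EPF2, AT5G37473 and AT5G27690. EPF2 had 20.9 and 14.9 in WT and 19.8 and 14.0 in mbd9-3. The 2 libraries numbered 1 were thus above the 2 numbered 2, whatever the genotype. The same held for AT5G37473, a defensin-like gene, with 20.02 and 15.9 in WT and 19.1 and 12.6 in mbd9-3, while AT5G27690, a heavy metal transport/detoxification protein, ranged from 13.5 to 15.8. LFY, the floral meristem identity regulator, hosted a weaker region in exon 2 of 3, with fold enrichments of 5.44 and 6.88 in WT and 6.22 and 5.77 in mbd9-3. LFY and BEL1 were singled out after their values were seen.

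**Figure D3:**
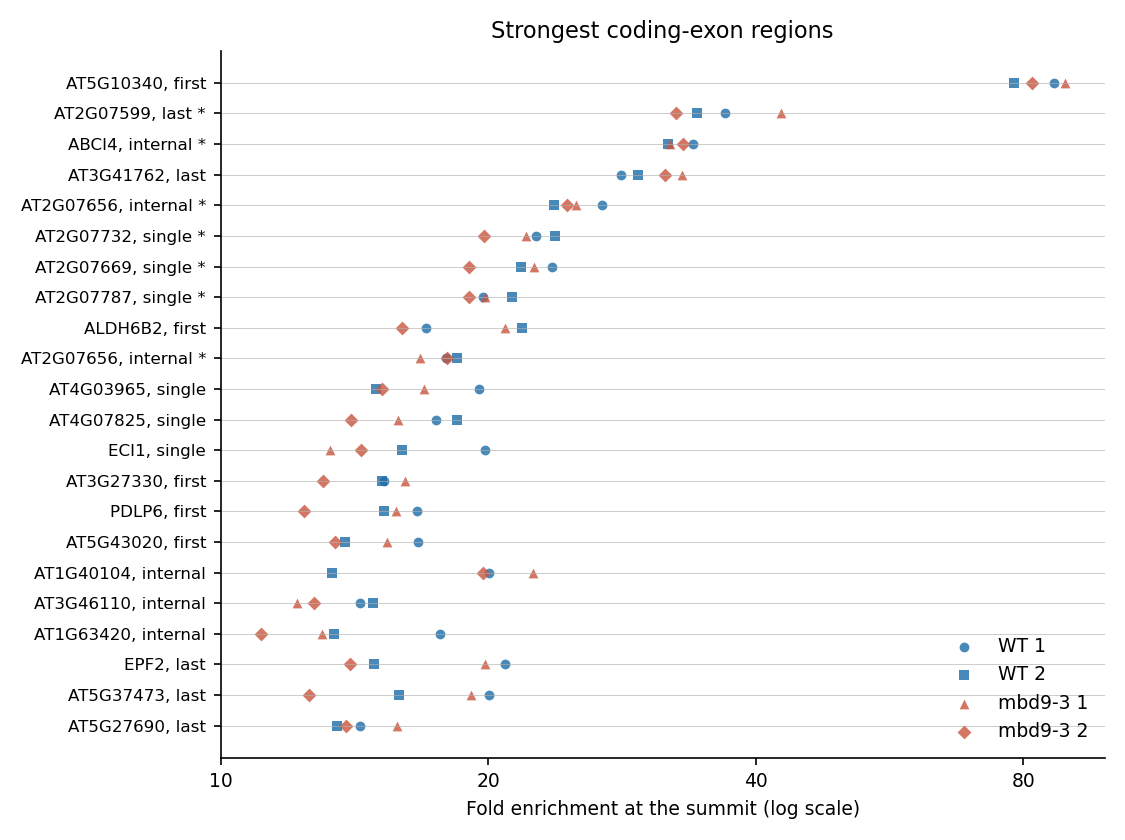
Fold enrichment at the summit (log axis) in each of the 4 libraries for the 10 strongest coding-exon regions and the next 3 of each exon class. Asterisks mark summit windows identical to the mitochondrial genome over their whole length. AT5G10340 stood at 78.0 to 89.0 in the 4 libraries, and apart from it, AT3G41762 and the windows with asterisks, the highest value was 22.4 in AT1G40104.

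Host genes were grouped by annotation text into 35 families and a remainder, and each share is given beside that of the eligible bases of the family. Genes whose annotation names a glycoside hydrolase or pectin held 73 regions, 4.60% (3.67 to 5.74%) against 1.66% of bases, in 60 of 424 genes. This text match also took in AT3G61028 and annotations of pectin methylesterase inhibitors. QRT3, a polygalacturonase that lets pollen grains separate, was the strongest of them, with fold enrichments of 12.3 and 11.6 in WT and 14.1 and 11.1 in mbd9-3 at a last-exon summit. Extensin, proline-rich, glycine-rich and arabinogalactan genes held 40 regions, 2.52% against 0.786%, and among them AGP18, an arabinogalactan protein, had 4.00, 6.10, 5.89 and 4.31 in WT 1, WT 2, mbd9-3 1 and mbd9-3 2. Expansins, which loosen cell walls, held 4, 0.252% (0.0981 to 0.646%) against 0.081% of bases. Their strongest was in EXPA5, with 14.3 and 12.2 in WT and 9.92 and 12.7 in mbd9-3.

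Cytochrome P450, UDP-glycosyltransferase and peroxidase families were also over their share. Cytochrome P450 genes held 44 regions, 2.77% (2.07 to 3.70%) against 1.09% of bases, in 35 of 248 genes (14.1%). CYP86A2, a fatty acid hydroxylase of cutin synthesis, had fold enrichments of 15.4, 12.2, 15.6 and 11.7 in WT 1, WT 2, mbd9-3 1 and mbd9-3 2, and BAS1, which inactivates brassinosteroids, 12.6, 10.8, 17.9 and 11.6. UDP-glycosyltransferases, which attach sugars to small molecules, held 24 regions, 1.51% (1.02 to 2.24%) against 0.566%, in 22 of 131 genes, and 15 of these regions were in single-exon genes. Peroxidases held 12, 0.756% (0.433 to 1.32%) against 0.276%. The groups of values overlapped between genotypes in CYP86A2 and in BAS1.

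Of the transcription factor families, AP2/ERF genes held 18 regions, 1.13% (0.719 to 1.79%) against 0.378% of bases. Their strongest was AT3G16280, with 8.71 and 8.91 in WT and 10.6 and 7.76 in mbd9-3, followed by AT1G22190 and AT5G21960 at mean rank percentiles of 84.8 and 84.3. TEM1, a repressor of flowering, came next at 80.4. Homeobox genes held 20 (1.26% against 0.769%), NAC genes 10 (0.630% against 0.353%) and WRKY genes 7 (0.441% against 0.237%), each above its share of bases. The interval of the homeobox share (0.817 to 1.94%) excluded that of its bases, while those of the NAC, WRKY, MYB, bHLH and bZIP shares included theirs. MADS-box genes held 4 regions, 0.252% (0.0981 to 0.646%) against 0.284% of bases, and so were not over their share. They were led by the pollen factors AGL66 and AGL104, with mean rank percentiles of 95.9 and 94.1.

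Several large families were under their share. Pentatricopeptide repeat genes, which act in organelle RNA processing, held 3 regions, 0.189% (0.0643 to 0.554%) against 1.41% of bases. Helicases held 1 against 0.879% of bases, kinases other than receptor-like ones 40 (2.52% against 5.06%), F-box genes 15 (0.945% against 2.03%) and ubiquitin genes 6 (0.378% against 1.10%). Genes annotated with disease resistance held 7 (0.441% against 1.53%), led by AT5G25010, an enhanced disease resistance-like protein. Genes of unknown function held 147 regions (9.26% against 4.83%), and 80 of these were in single-exon genes. Families differ in exon number and gene length, and the part of these in the shares was not tested.

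**Figure D4:**
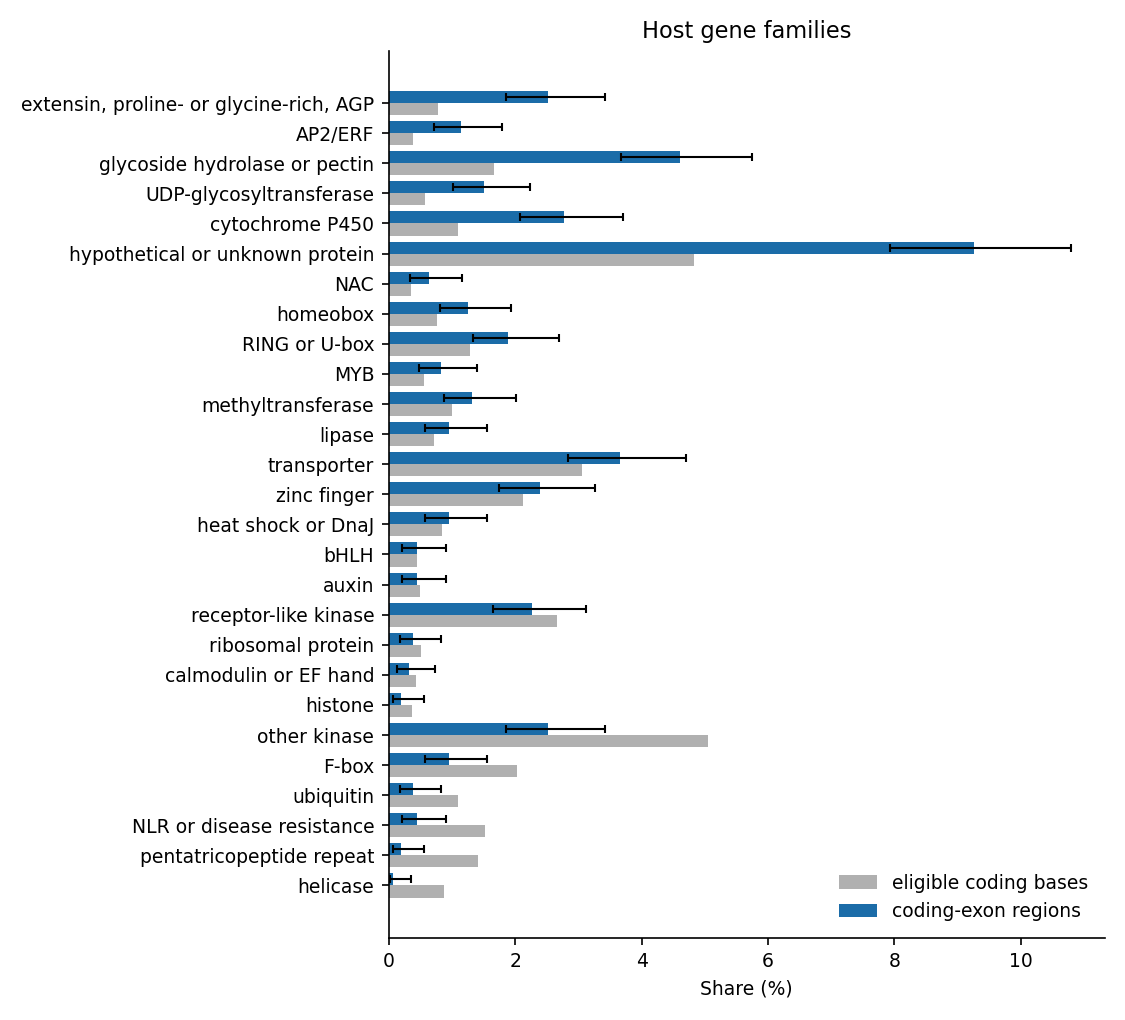
Share (%) of coding-exon regions in each host gene family (bars with 95% Wilson intervals) beside the share of eligible coding bases, ordered by their ratio, for families with at least 5 regions at the share of their bases. Extensin and related genes stood at the top with 2.52% against 0.786%, and helicases at the bottom with 1 region.

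The summit windows held 2 hexamers far more often than coding sequence at large. The G-box (CACGTG, its own reverse complement) was in 206 of 1587 windows, 13.0%, against 1.13% of 294292 windows of the same length tiled over the eligible bases. In the other regions called in all 4 libraries it was in 12.7%. By the ratio of its share in summit windows to that in the tiles, 11.5, it was first of all 2080 hexamers counted with their reverse complements, and TGGGCC or GGCCCA, in 187 windows (11.8% against 1.20%), was the next with 9.85. TGGGCC was in 18.5% of the other regions. Only 11 windows held both hexamers. Summit windows were richer in G and C, with a median of 48.5% against 42.6% in the tiles and 41.6% in the other regions, and against tiles of 44.6 to 51.5% G and C the ratios were 8.17 and 6.85.

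The G-box lay close to the summit. Its nearest copy was within 10 bp of 52 summits and within 20 bp of 103, and the number per 20 bp of sequence fell from 52 at the summit to 4.8 at 150 to 200 bp. It was in 21.4% of the strongest 10% of coding-exon regions and in 7.55% of the weakest 10% (159 regions each). Regions with a G-box had a median mean rank percentile of 71.0, those without 56.0, and those with TGGGCC or GGCCCA 74.98. Within 250 bp of the TSS the G-box was in 9.69% of windows, within 500 bp of the gene end in 15.6% and in the rest of the gene in 12.2%. Such a match describes letters in a window and not a bound protein. In SGR9 the G-box was 3 bp from a summit at codon 283 of 283, in BEL1 5 bp from one in the last exon and in ALDH6B2 10 bp from one at codon 24. It was farther from the summit in ECI1, EPF2 and AT4G03965, at 39, 44 and 45 bp.

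The other motifs searched, on both strands, were less distinctive. The TATA box (TATAAA) was in 3.15% of summit windows, 10.4% of the other regions and 4.74% of the tiles, and the telo-box (AAACCCTA), an element of promoters of translation genes, in 0.252%, 1.6% and 0.832%. The GCC-box (GCCGCC) was in 3.28%, 1.34% and 2.23%, the TCP-type element (GGNCCC) in 9.70%, 10.7% and 3.05%, the W-box core (TTGAC) in 19.8%, 22.5% and 18.8%, and the CArG box in 0.504%, 1.34% and 0.482%. GAGAGA was in 11.2%, 14.2% and 11.0%, and in 29.1% of the windows within 250 bp of the TSS. The promoter elements TATA box and telo-box were therefore rarer in coding-exon windows than in either comparison set. TGGGCC and GGNCCC can share bases, as can neighbouring copies of GAGAGA.

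**Figure D5:**
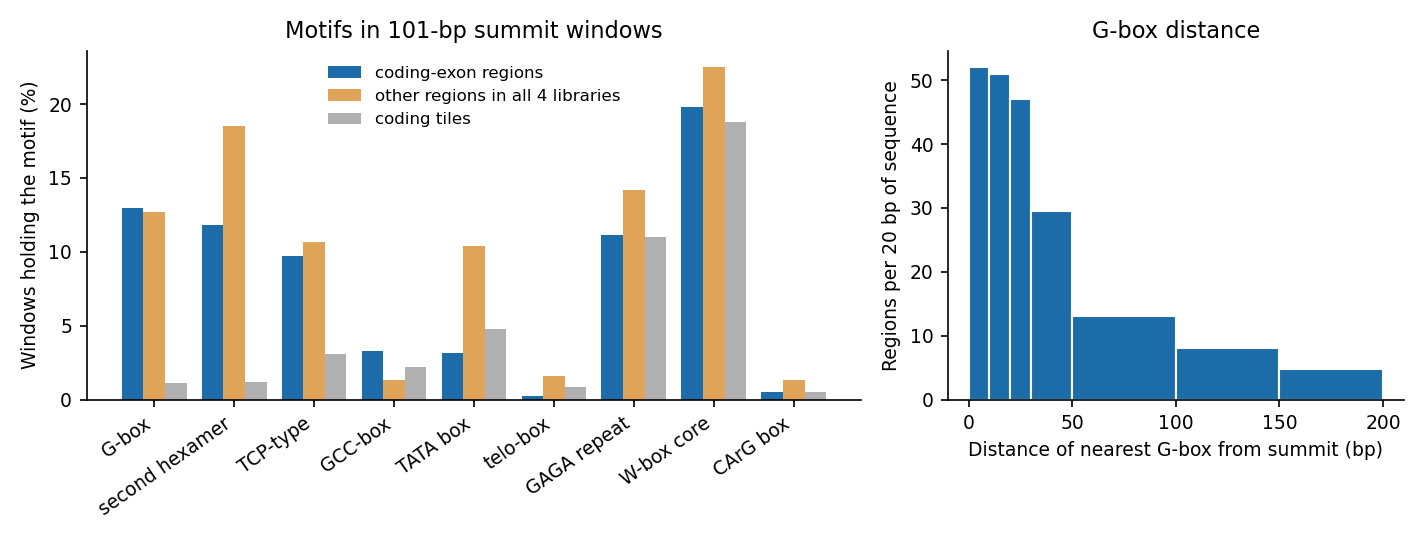
Left, share (%) of summit windows with each motif in coding-exon regions, in the other regions called in all 4 libraries and in tiles over eligible coding bases. Right, distance (bp) of the nearest G-box from the summit, as the number of coding-exon regions per 20 bp of sequence. The second hexamer is TGGGCC or its reverse complement. The G-box was in 13.0, 12.7 and 1.13% of the windows of the 3 sets.

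Differences between genotypes in the overall rank and width of the coding-exon regions were smaller than the spread between libraries. In nuclei of whole flowers, a region open in more cells cannot be told apart from one more open in each cell. The median rank percentile was 59.6 ± 5.42 in WT and 61.1 ± 9.41 in mbd9-3 (SD, n = 2 each), a difference of 1.47 points (exact two-sided permutation test, p = 1.0, smallest possible 0.33). Compared within replicate 1 the difference was 4.30 points, and within replicate 2 it was −1.36. The sign also turned without WT replicate 2 (−2.995) and without mbd9-3 replicate 1 (−5.55). Widths were 186.5 ± 3.54 bp in WT and 186.0 ± 11.3 bp in mbd9-3 (exact p = 1.0).

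For single regions, limma was fitted to normal scores of the ranks in each library over all 19546 regions called in all 4. At an adjusted p of 0.05 it called 0 regions (0% of all tested), and 0 of the 1587 in coding exons, with a smallest adjusted p of 0.905. At an unadjusted p under 0.05 there were 1046 regions over all places (5.35%) and 110 in coding exons (6.93%). Of these 110, 87 were higher in mbd9-3 (5.48% of coding-exon regions, against 2.78% of all regions) and 23 lower (1.45% against 2.57%). This split was less uneven with ranks in the whole list, at 52 higher and 36 lower, against 346 and 647 over all regions. The median shift of coding-exon regions varied with single libraries. It was 0.2034 without WT replicate 1, −0.0313 without WT replicate 2, 0.0148 without mbd9-3 replicate 1 and 0.2246 without mbd9-3 replicate 2. Over all regions it was −0.0071, −0.0177, 0.0171 and 0.0195 in the same order. Both mbd9-3 libraries ranked above both WT libraries in 345 coding-exon regions (21.7%, against 17.2% of all regions), and below them in 171 (10.8% against 17%). The limma shift had a median of 0.11 in coding-exon regions and of −0.0033 over all regions, in units of the normal score.

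The 3 coding-exon regions with the lowest p in each direction were in KOR2, AT1G10850 and SGR9, higher in mbd9-3, and in AT1G30750, AT1G48960 and AT5G43020, lower, and none passed the adjustment. In KOR2, which encodes an endoglucanase of the cell wall, the fold enrichment was 3.50 and 4.09 in WT and 7.67 and 9.14 in mbd9-3, with rank percentiles of 46.7 and 50.2 against 90.7 and 94.1. The shift was 1.91 (SE 0.38), with an unadjusted p of 7.6e-04 and an adjusted p of 0.905 by limma. In SGR9 the fold enrichment was 2.81 and 3.10 in WT and 7.18 and 5.06 in mbd9-3, and in AT1G10850, a leucine-rich repeat kinase, 2.12 and 2.11 against 3.20 and 3.22. The groups did not overlap in these genes. The values of AT1G10850 lie near the lowest of the lists, at about 6 to 9 tags. In WT, KOR2 and SGR9 each had about 9 and 12 tags.

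Of the regions with lower ranks in mbd9-3, AT1G48960 had 4.79 and 5.33 in WT and 3.09 and 2.46 in mbd9-3. AT1G30750 had 3.96 and 3.68 against 2.34 and 2.11. The mbd9-3 values rested on few tags, about 10 and 8 in AT1G48960 and 7 in each library in AT1G30750. The mbd9-3 rank percentiles of AT1G30750 were 8.38 and 0.382, near the lowest of the lists. A region of AT5G43020 in the same first exon as the strong one above had 4.66 and 5.55 against 3.23 and 2.59. Its mbd9-3 values were at about 11 and 9 tags. The strong one, at 52.9% of the gene against 30.2%, had a shift of 0.02 (limma, SE 0.38). The 6 shifts lay between −1.85 and 1.95. Their sign was the same under every alternative in which the region was found, but this is no support for them. The regions were picked for their low p, and the genotypes did not overlap in any of them. Leaving out a library could therefore hardly turn the sign.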

How the data were processed

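ATAC-seq peak lists of 4 libraries were analysed, 2 of WT and 2 of mbd9-3 flowers, with groups and replicate numbers from their titles. The study's methods give adaptor removal by trim_galore, mapping to TAIR10 by Bowtie with uniquely placed reads kept, and removal of organelle and duplicate reads by SAMtools, and the submitters' processing notes name Bowtie2. The peak caller, its options and any shift for Tn5 are not given in the sources used here. Each deposited list covers 1 library, carries the words no control in its peak names and gives a score, a fold enrichment as a ratio, and −log10 p-values and q-values. The score deposited by the authors was not used as a measurement. Read depth is unknown. Pileups were solved from the deposited fold, taken as (pileup + 1)/(background + 1), and a Poisson p-value, which is an inference and returned a whole number for 99.9% of rows. More sensitive libraries call more weak peaks, so values were ranked within a list.

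Gene models came from the TAIR10.1 annotation, which shares its nuclear chromosomes with TAIR10, and coordinates are 1-based. Exon rank was counted over coding exons of the first listed transcript that holds the summit. Copies were searched with BLAST+ 2.17.0+. The test between genotypes was limma 3.58.1 in R 4.3.3 (lmFit, eBayes, Benjamini-Hochberg, threshold 0.05) on normal scores of ranks. Regions were joined and counted in Python 3.11.15 (pandas 2.3.3, numpy 2.4.6), exact tests used scipy 1.17.1 and plots matplotlib 3.10.9. Simulated data for mbd9-3 against WT had 19546 regions and normal noise of the same SD in each. Of 200 regions shifted by 1, 2 and 3 score units, limma called 0, 134 and 198, with 0, 6 and 5 false calls. Real regions need not share 1 SD, so these counts do not give the power in the real data.

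The regions, families, motifs and tests were chosen with earlier results of these data known. Ranks could be taken within the whole list or among the regions called in all 4 libraries. Both were fitted, and the second was taken as the main one with both results known. The AP2/ERF text pattern was corrected after its matches were inspected. The scan of all hexamers, the search for organelle identity, the groups of related genes, and the zones near gene ends were added after the data were seen. Named genes were the 10 strongest regions by mean rank percentile, the next 3 of each exon class, the 3 lowest limma p-values in each direction, the 5 hosts with the most regions (ties at 3 regions, held by 14 hosts, were settled by the highest summed rank percentile), the 3 widest regions and hosts among genes the study addressed. The strongest of a family and others are named after their values were seen. Alternatives are in the closing section.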

Additional observations from a re-analysis of the deposited data

How the results depend on the processing

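All alternatives gave 0 limma calls at an adjusted p of 0.05, with 506 to 1623 regions at an unadjusted p under 0.05. The number of coding-exon regions stayed within 1.5 times except at a −log10 q of at least 5, where it was 539, and ran from 1728 to 2098 when 1 library was left out. The share in first exons was 15.4% when the TSS of every transcript defined promoters (17.9 to 18.6% with a library left out). The share in genes with 1 coding exon was 33.8% at the stricter q and 26.3 to 28.7% with a library left out. The genotype difference in median rank percentile turned to −3.96 at the stricter q and ran from −5.55 to 10.2 with a library left out. The genotype difference in width was 0.50 bp when merging asked for 50% overlap and ran from −10.8 to 12.5 bp with a library left out. The width difference between coding-exon and other regions was 34.5 bp at the stricter q, 8.0 bp with lists of equal length and 0.25 bp at 50% overlap. The cause of these changes was not tested.

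The replicate numbers are not stated to mark a shared batch. Deviations of same-numbered libraries correlated at 0.11 over all regions and 0.17 over coding-exon regions. With a replicate block the genotype differences were 1.47 points and −0.50 bp, and limma made 0 calls. At an unadjusted p under 0.05 it had 1362 regions (710 higher and 652 lower in mbd9-3), 145 of them in coding exons (109 higher and 36 lower). The split in coding exons was 81 to 23 when ranked by p, 71 to 17 on log2 fold enrichment, 55 to 14 with lists of equal length and 21 to 6 at the stricter q. Over all regions it was 593 to 524, 546 to 523, 482 to 468 and 249 to 257 in the same order. In 2 alternatives chosen after seeing the data the split in coding exons was 87 to 25 without organelle-identical regions and 52 to 36 on ranks in the whole list. Over all regions these gave 546 to 498 and 346 to 647. With a library left out, the median shift of coding-exon regions was 0.2034 without WT replicate 1 and 0.2246 without mbd9-3 replicate 2. It was −0.0313 without WT replicate 2 and 0.0148 without mbd9-3 replicate 1, against −0.0177 and 0.0171 over all regions. The direction of the shift thus depended on single libraries. With 2 libraries per genotype, shifts of 1 score unit were not called in simulated data with equal noise in all regions.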

Other observations

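Some groups of genes with a shared symbol held several hosts. These groups were picked after the hosts were seen and are given with no test. All 3 genes of the BRG group, which encode BOI-related RING proteins, were hosts, at 89.6 to 90.6% of their codons, with mean rank percentiles of 73.2 for BRG1, 94.99 for BRG2 and 63.4 for BRG3. Of 5 CYP86A genes, 4 were hosts with 8 regions, and CYP86A2, CYP86A4 and CYP86A8 had their strongest summit at codon 308, 312 and 310, while in CYP86A7 it was at codon 260 of 523. These regions had fold enrichments of 11.7 to 15.6 in CYP86A2, 7.89 to 10.6 in CYP86A4 and 7.85 to 11.4 in CYP86A8 over the 4 libraries. WRKY7, WRKY11 and WRKY17 each had a region in exon 3 of 3, at 80.2, 81.3 and 79.7% of the gene. The tandem genes GH9B9, GH9B10, GH9B11 and GH9B12, encoding endoglucanases, had summits in exon 2 of 4, at codons 119, 114, 125 and 123.

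Of 4 CYP707A genes, which inactivate abscisic acid, 3 were hosts with 2 regions each. In each gene the later region was the stronger by mean rank percentile. It had fold enrichments of 8.66 and 8.10 in WT and 6.66 and 6.86 in mbd9-3 in CYP707A1. In CYP707A2 they were 6.68, 5.89, 8.09 and 5.21 in WT 1, WT 2, mbd9-3 1 and mbd9-3 2. In CYP707A3 they were 8.45 and 9.52 in WT and 5.44 and 4.95 in mbd9-3 (limma, adjusted p = 0.905 for CYP707A3). The earlier region of CYP707A3 was higher in mbd9-3 replicate 2, at 5.24. Of 6 genes with an NCED symbol, 4 were hosts with 7 regions, all in single coding exons. GA3OX genes, whose enzymes make active gibberellins, were hosts in 3 of 4 cases, with summits in exon 2 of 2. TAA1, an enzyme of auxin synthesis, had 3 regions, in exons 2, 3 and 5 of 5.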
